A study of Mus musculus with 4 samples.

Results

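The transcripts described here are those of 8 receptors through which growth factors act on myeloid cells: Csf3r, Csf2ra, Csf2rb, Csf2rb2, Csf1r, Il3ra, Kit and Flt3. They were taken by symbol, without regard to their values, from a table of 24768 mouse genes, and all 8 had a row. Of the 8 receptors, 6 had a mean level high enough to be tested, and Csf1r and Flt3 did not. RNA was sequenced from double-negative T cells, labelled cDNT, of genotype Tbx21-KO (2 libraries) and WT (2 libraries). Tbx21 encodes T-bet, a transcription factor of type 1 lymphocytes, and the comparison asks how its loss bears on regulation by such cells. All samples carry the cell type label T cells. The sample labels speak of a knockout and the design text of a knockdown. The labels used here state neither strain nor age nor how Tbx21 was disrupted, and no label says that the 2 libraries of a group came from separate animals or cultures. P-values therefore rest on a spread among libraries that may be technical.

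Blood cell growth factors act through 2 kinds of receptor. Csf3r, which binds G-CSF, and the chains for GM-CSF and IL-3 are cytokine receptors without a kinase of their own, which signal through JAK kinases and STAT proteins. A ligand-specific alpha chain (Csf2ra for GM-CSF, Il3ra for IL-3) pairs with the common beta chain Csf2rb, and mice carry a second beta chain, Csf2rb2, that serves IL-3. Csf1r, which binds M-CSF and IL-34, Kit, which binds stem cell factor, and Flt3, which binds FLT3 ligand, are related receptor tyrosine kinases. Csf3r is a hallmark of neutrophils and their precursors, Csf1r of monocytes and macrophages, Kit of blood progenitors and mast cells, and Flt3 of early progenitors and dendritic cell precursors. T cells are known less as targets than as makers of such factors, GM-CSF and IL-3 among them.

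Both Tbx21-KO libraries held more transcript of 7 of the 8 receptors than both WT libraries, and less of Kit. For comparison, of all 24060 genes above 0 in any library, 38.7% had their groups apart with Tbx21-KO above WT and 20.9% with Tbx21-KO below, and of the tested genes 43.7% and 35.3% did. In the test over 11013 genes, of which 53.1% were called, 5 receptors were higher (Csf3r, Csf2rb, Csf2rb2, Csf2ra and Il3ra) and Kit was lower, where 30.1% of all tested genes were called higher and 23.0% lower. The 4 largest differences among the receptors lay between the 98.7th and the 99.5th percentile of the log2 fold changes of all tested genes, and 7.89% of tested genes were called higher with a log2 difference of 1 or more. Csf3r, the largest, reached the mean level needed for testing through the Tbx21-KO libraries alone, so it had to differ. Among genes with a WT mean of at least 1 FPKM, 4 receptors were called higher, where 2647 of all 10395 such genes were. Of all calls 56.7% were higher, against 43.0% with median-of-ratios scaling, 39.6% after quantile normalization and 93.4% when libraries were rescaled to T cell genes. These scalings moved the median of all tested genes by -0.10, -0.13 and 0.39, and the receptors' calls and directions were the same under each. Levels are FPKM, the fragments of a gene scaled to its length and to the size of the library. Log2 fold changes subtract the WT mean of log2(FPKM + 1) from that of Tbx21-KO, so they are compressed for low genes, and a gene is called at an adjusted p under 0.05 (limma, Benjamini-Hochberg adjustment over all tested genes). For 2 libraries against 2, p = 0.33 is the least that a two-sided exact permutation test can give, so none was used per gene.

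Tbx21 was at 2.29 and 2.41 FPKM in the Tbx21-KO libraries, against 13.2 and 11.7 FPKM in the WT libraries, and its Tbx21-KO mean was 18.8% of the WT mean (log2 fold change -2.01, SE 0.08, limma adjusted p = 8.21e-05). T cell genes were abundant in both groups: the 17 measured genes of a T cell list summed to 1518 and 1550 FPKM in Tbx21-KO and 2127 and 2233 FPKM in WT, and 1 of them was called higher, 12 lower and 4 in neither direction. Cd4 and Cd8b1, the measured coreceptor genes that double-negative T cells lack by definition, summed to 4.95 and 4.91 FPKM in Tbx21-KO and 3.68 and 4.77 FPKM in WT, and limma called neither. The low values of each library were whole multiples of 1 read for 96.8% to 97.3% of genes (within 0.1 read), which implied totals of 23342603 and 24032883 reads in Tbx21-KO and 24967028 and 24129889 reads in WT.

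**Figure D1:**
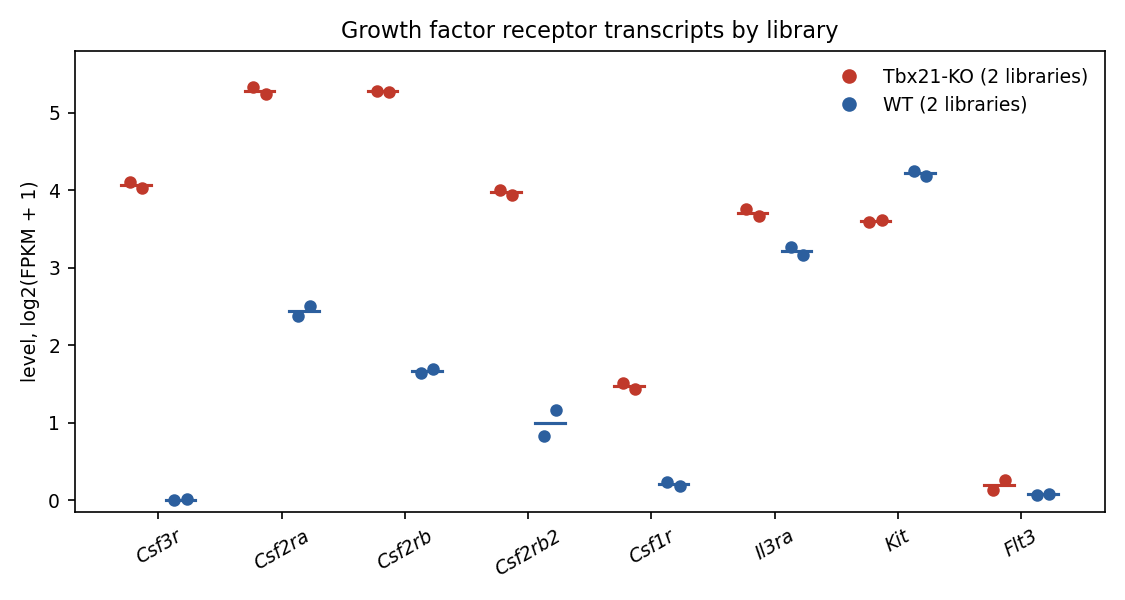
Level of each receptor transcript in log2(FPKM + 1), with 1 point per library and a line at the mean of the group's 2 log values (Tbx21-KO in red, WT in blue). Csf2ra and Csf2rb stand highest in Tbx21-KO, near 38 FPKM, and Kit stands highest in WT, at 18.05 and 17.2 FPKM.

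The G-CSF receptor gene was all but silent in WT. Csf3r (ENSMUSG00000028859, protein-coding, GRCm38 chromosome 4, 126024550 to 126044440, plus strand) was at 16.2 and 15.3 FPKM in the Tbx21-KO libraries, against 0 and 0.0115 FPKM in the WT libraries. These values stand for 1367 and 1331 reads in Tbx21-KO and for 0 and 1 read in WT. The groups were far apart, and a single read carries the WT level. Scaled to the implied library totals, the ratio of Tbx21-KO to WT was 2796, with an exact 95% interval of 501 to 110478 that covers counting error only. The log2 fold change was 4.06 (SE 0.07, limma adjusted p = 1.24e-05). Csf3r passed the filter on low levels through the Tbx21-KO libraries alone, so it could only have been tested as a gene that differs.

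The GM-CSF receptor was higher in both of its chains. Csf2ra (ENSMUSG00000059326, chromosome 19, 61223957 to 61228429, minus strand), the alpha chain, was at 39.1 and 36.9 FPKM in Tbx21-KO, against 4.202 and 4.68 FPKM in WT. Its mean was 8.56-fold higher in Tbx21-KO (log2 difference 2.84, SE 0.06, limma adjusted p = 2.10e-05). Csf2rb (ENSMUSG00000071713, chromosome 15, 78325752 to 78353847, plus strand), the common beta chain, was at 37.8 and 37.6 FPKM in Tbx21-KO, against 2.13 and 2.24 FPKM in WT. It was 17.3-fold higher (log2 difference 3.60, SE 0.05, limma adjusted p = 6.18e-06). The 2 libraries of a group lay close together for both chains, and the groups did not overlap. In FPKM, the beta chain stood at 0.967 and 1.02 times the level of the alpha chain in Tbx21-KO, against 0.506 and 0.477 times in WT. These ratios are approximate, since the gene length behind the FPKM is uncertain for both chains.

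The second beta chain lies beside the first in the genome and is a near copy of it. Csf2rb2 (ENSMUSG00000071714, chromosome 15, 78282507 to 78305721, minus strand) was at 15.1 and 14.3 FPKM in Tbx21-KO, against 0.782 and 1.25 FPKM in WT. The WT pair was spread more widely than for Csf2rb, though both WT libraries lay far below Tbx21-KO. The log2 fold change was 2.97 (SE 0.12, limma adjusted p = 1.04e-04). The coding sequences of 1 annotated transcript of each gene (GENCODE M21) align with 92.9% identity over 2694 columns, and the longest identical stretch is 242 bases. Of all windows of 100 bases in the Csf2rb2 coding sequence, 11.3% occur unchanged in Csf2rb. The first 120 coding bases of both are shown as an example of their likeness and differ at 4 bases, which are in capitals.
Csf2rb: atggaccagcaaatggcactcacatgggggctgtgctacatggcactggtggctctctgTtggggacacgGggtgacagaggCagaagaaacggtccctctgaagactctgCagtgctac
Csf2rb2: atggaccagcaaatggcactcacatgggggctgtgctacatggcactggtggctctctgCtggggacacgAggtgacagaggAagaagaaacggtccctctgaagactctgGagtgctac
How the counting treated reads that match both genes is not stated, so the split between the paralogs is uncertain. Their summed reads came to 347 and 341 CPM (reads scaled to library size) in Tbx21-KO, against 19.2 and 22.2 CPM in WT, a 16.6-fold difference. For Csf2ra, Csf2rb, Csf2rb2 and Csf1r the annotation's exon length did not turn FPKM into whole reads, so reads of these genes are approximate.

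The IL-3 receptor alpha chain moved far less than the beta chains it pairs with. Il3ra (ENSMUSG00000068758, chromosome 14, 14346275 to 14356011, plus strand) was at 12.5 and 11.7 FPKM in Tbx21-KO, against 8.63 and 7.99 FPKM in WT. It was 1.46-fold higher (log2 difference 0.49, SE 0.06, limma adjusted p = 0.00304), and the groups did not overlap. An antisense gene, Gm48860, overlaps it and was at 0.155 and 0.188 FPKM in Tbx21-KO and at 0.0363 and 0 FPKM in WT. Set beside Il3ra in the same library, Csf2rb was 3.02 and 3.22 times as high in Tbx21-KO, against 0.247 and 0.280 times in WT. By FPKM the alpha chain was thus the more abundant of the pair in both WT libraries and the less abundant in both Tbx21-KO libraries. The size of these ratios is approximate, since the length and the reads of Csf2rb are uncertain.

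Of the 3 receptor tyrosine kinases, Kit was the one with a substantial level in WT, and it was lower in Tbx21-KO. Kit (ENSMUSG00000005672, chromosome 5, 75574916 to 75656722, plus strand) was at 11.0 and 11.2 FPKM in Tbx21-KO, against 18.05 and 17.2 FPKM in WT. The Tbx21-KO mean was 63.1% of the WT mean (log2 difference -0.62, SE 0.05, limma adjusted p = 6.16e-04). The values rest on 2287 and 2402 reads in Tbx21-KO and 4015 and 3692 reads in WT. Rescaling to the 17 T cell genes left Kit lower by a log2 fold change of -0.21 (limma adjusted p = 0.0287). Set against single T cell genes, the direction of Kit depended on the gene. Trac, Trbc1, Trbc2, Ptprc, Lck and Cd28 had Tbx21-KO means at a smaller share of WT than Kit, down to 35.3% for Cd28, and the other 11 at a larger share, such as 70.7% for Cd3e and up to 155% for Cd5. In bulk RNA, fewer cells of a type and less RNA per cell cannot be told apart, for Kit as for the other receptors.

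Csf1r and Flt3 stayed under the filter of a mean of 1 FPKM over the 4 libraries. Csf1r (ENSMUSG00000024621) was at 1.86 and 1.70 FPKM in Tbx21-KO, against 0.172 and 0.136 FPKM in WT. It lay just under the filter, with a mean of 0.966 FPKM, and was called higher in the fit with no filter (log2 fold change 1.27, limma adjusted p = 0.00508). The gene Hmgxb3, which overlaps its end on the opposite strand, was at 6.90 and 7.13 FPKM in Tbx21-KO and at 6.80 and 7.05 FPKM in WT. Flt3 (ENSMUSG00000042817, chromosome 5, 147330741 to 147400489, minus strand) was at 0.0971 and 0.202 FPKM in Tbx21-KO, against 0.0454 and 0.0604 FPKM in WT. That is 14 and 30 reads in Tbx21-KO and 7 and 9 reads in WT, and the fit with no filter did not call it (log2 fold change 0.13, limma adjusted p = 0.221). At this depth a difference in Flt3 was not settled.

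The order of the receptors by FPKM, which is scaled by gene length, differed between the groups. For Csf2ra, Csf2rb, Csf2rb2 and Csf1r the annotation's exon length did not give whole reads, so the length behind their FPKM is uncertain. The split of reads between Csf2rb and Csf2rb2 is uncertain as well. The places of these genes in the order, and all shares of the summed FPKM, are therefore approximate. In Tbx21-KO, Csf2ra averaged 38.0 ± 1.5 FPKM and Csf2rb 37.7 ± 0.19 FPKM (SD, n = 2), which did not differ beyond their spread. Csf3r followed with 15.8 ± 0.62, Csf2rb2 with 14.7 ± 0.51, Il3ra with 12.1 ± 0.61 and Kit with 11.1 ± 0.16 FPKM, and Csf1r and Flt3 came last. In WT, Kit led with 17.6 ± 0.62 FPKM, ahead of Il3ra with 8.31 ± 0.45 and Csf2ra with 4.44 ± 0.34 FPKM. Csf2rb, Csf2rb2, Csf1r, Flt3 and Csf3r followed in that order, and no neighbours in the WT order overlapped in their values. Kit made up 8.22% and 8.70% of the summed FPKM of the 8 receptors in Tbx21-KO, against 53.1% and 51.2% in WT. The sum itself was 133.7 and 129.0 FPKM in Tbx21-KO and 34.0 and 33.5 FPKM in WT.

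**Figure D2:**
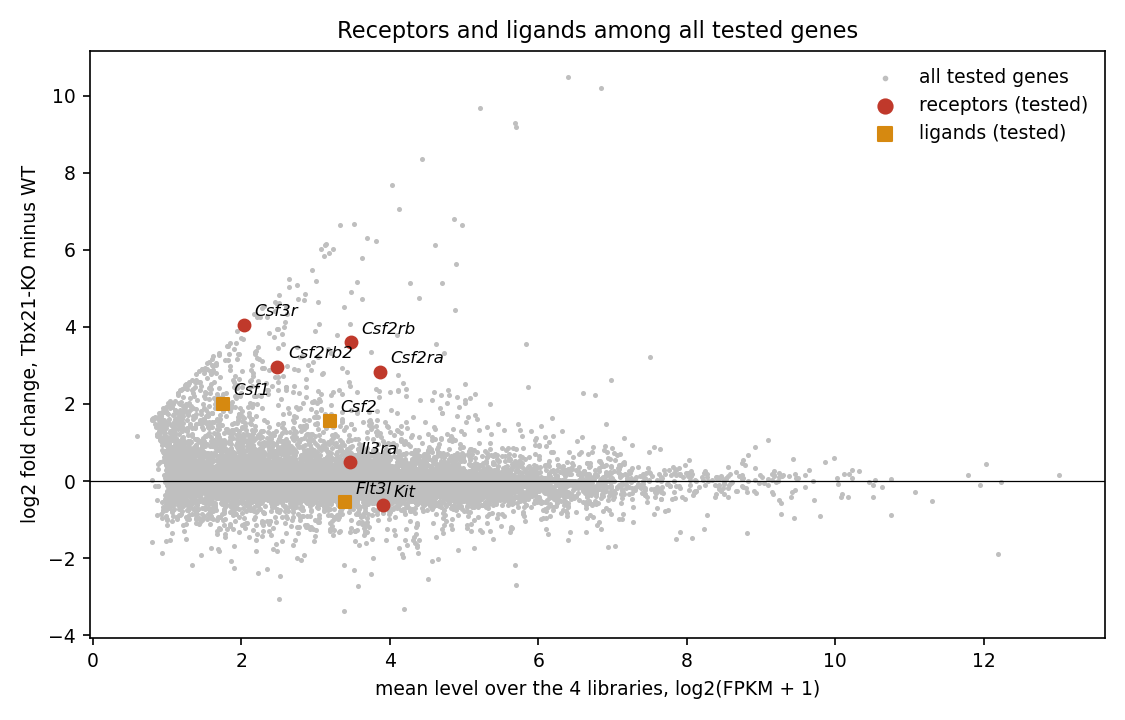
Each grey point is 1 of the 11013 tested genes, placed by its mean log2(FPKM + 1) over the 4 libraries and its log2 fold change, Tbx21-KO minus WT. The tested receptors (red circles) run from Kit at -0.62 to Csf3r at 4.06, and the tested ligands (orange squares) from Flt3l at -0.55 to Csf1 at 2.00.

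The promoters of Csf3r, Csf2ra and Csf2rb2, which were far higher in Tbx21-KO, are shown with that of Kit, the receptor that was lower. They are printed so that short motifs in them can be compared. Csf2rb, also far higher, had no promoter in the set used, so the comparison leaves it out. RefSeq (GRCm38.p6) promoter windows, from 250 bases before to 50 after the start, matched 6 receptors: Csf3r, Csf2ra, Csf2rb2, Il3ra, Kit and Flt3. For Csf3r, Csf2ra, Il3ra and Kit the RefSeq start lies inside the gene span given above, so part of the bases before it does too. The 250 bases before the start are printed for Csf3r (chr4:126024409-126024658, plus strand), Csf2ra (chr19:61228419-61228668, minus strand), Csf2rb2 (chr15:78305722-78305971, minus strand) and Kit (chr5:75574737-75574986, plus strand). Capitals mark GAGGAA, a core of sites for the myeloid factor PU.1, on either strand.
Csf3r: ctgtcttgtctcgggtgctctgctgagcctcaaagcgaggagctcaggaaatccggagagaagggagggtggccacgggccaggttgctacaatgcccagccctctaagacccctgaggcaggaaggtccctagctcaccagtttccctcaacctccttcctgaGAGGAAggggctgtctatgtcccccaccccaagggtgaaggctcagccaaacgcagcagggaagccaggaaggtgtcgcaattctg
Csf2ra: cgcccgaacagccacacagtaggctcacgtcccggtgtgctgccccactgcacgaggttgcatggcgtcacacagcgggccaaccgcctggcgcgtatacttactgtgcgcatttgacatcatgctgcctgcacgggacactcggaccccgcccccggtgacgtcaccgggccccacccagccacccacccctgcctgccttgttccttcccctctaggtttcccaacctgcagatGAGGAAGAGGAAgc
Csf2rb2: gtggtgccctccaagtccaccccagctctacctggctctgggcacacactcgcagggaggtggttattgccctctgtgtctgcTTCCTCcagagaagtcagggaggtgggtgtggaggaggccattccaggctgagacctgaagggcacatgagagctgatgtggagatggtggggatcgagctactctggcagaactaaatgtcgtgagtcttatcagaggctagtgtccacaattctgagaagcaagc
Kit: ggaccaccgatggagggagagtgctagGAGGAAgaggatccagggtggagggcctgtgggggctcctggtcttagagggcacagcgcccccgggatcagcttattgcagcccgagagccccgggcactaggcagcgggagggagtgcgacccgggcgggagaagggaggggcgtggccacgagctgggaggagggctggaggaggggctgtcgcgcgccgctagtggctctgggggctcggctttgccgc
GAGGAA or its reverse complement occurred in 28.3% of all 32851 promoter windows of the table. It was found once in Csf3r, 86 bases before the RefSeq start but inside the gene span given above. Csf2ra held it as a tandem pair, 14 and 8 bases before the start. Csf2rb2 held it 167 bases before the start and again 29 bases after it, and Kit held it 223 bases before. The windows of Il3ra and Flt3 held none. The C/EBP motif TTGCNNAA, found in 10.8% of all windows, occurred in Il3ra alone of the 6, overlapping no other motif searched. Both strands were searched for each motif. The T-box motif GGTGTGA, in 3.98% of all windows, was in none of the 6. The GATA motif AGATAA, in 11.2% of all windows, was in none of them either. The same held for the RUNX motif TGTGGT, found in 16.8% of all windows. These matches describe letters in the windows and say nothing of binding.

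The ligand transcripts ranged from near 0 to levels like those of the receptors. Of the 7 ligand genes with a row, 3 passed the filter, of which 2 were higher and 1 lower, beside 30.1% higher and 23.0% lower of all tested genes. Csf2, which encodes GM-CSF, was at 14.5 and 15.1 FPKM in Tbx21-KO, against 3.75 and 4.97 FPKM in WT (log2 fold change 1.56, SE 0.12, limma adjusted p = 5.73e-04). The antisense gene Gm12223, which overlaps Csf2, was at 0.649 and 0.552 FPKM in Tbx21-KO and at 0.152 and 0.392 FPKM in WT. Csf1, which encodes M-CSF, was at 5.87 and 5.57 FPKM in Tbx21-KO, against 0.683 and 0.667 FPKM in WT (log2 fold change 2.00, SE 0.08, limma adjusted p = 8.09e-05). Csf1, like Csf3r, passed the filter only through the Tbx21-KO libraries, so it had to differ. The count of called ligands therefore supports nothing about the list. Ligand and receptor transcripts of Csf2 with Csf2ra and of Csf1 with Csf1r were thus both higher in Tbx21-KO. Other pairs did not match in this way. Csf3r and Il3ra were called higher, while Csf3 and Il3 overlapped between the groups. Kit was lower, while Kitl overlapped, and Flt3l was lower, while Flt3 was not called.

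Flt3l, the FLT3 ligand, was lower: it stood at 7.66 and 7.78 FPKM in Tbx21-KO, against 11.6 and 11.9 FPKM in WT (log2 fold change -0.55, SE 0.05, limma adjusted p = 8.33e-04). After rescaling to T cell genes it was no longer called (log2 fold change -0.15, limma adjusted p = 0.0561). A second annotated gene, Gm45713, spans the same place on the same strand and is not analysed here. The remaining ligands stayed under the filter. Il5, which acts through the common beta chain, was at 0.976 and 1.14 FPKM in Tbx21-KO, against 0.365 and 0.539 FPKM in WT. Csf3, the G-CSF gene, rested on 3 and 13 reads in Tbx21-KO and on 3 and 4 reads in WT. Il3 rested on 0 and 2 reads in Tbx21-KO and on 1 and 3 reads in WT, and Kitl, which encodes stem cell factor, on 6 and 0 reads in Tbx21-KO and on 1 read in each WT library. For Csf3, Il3 and Kitl the groups overlapped, and no difference was detectable at this depth.

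**Figure D3:**
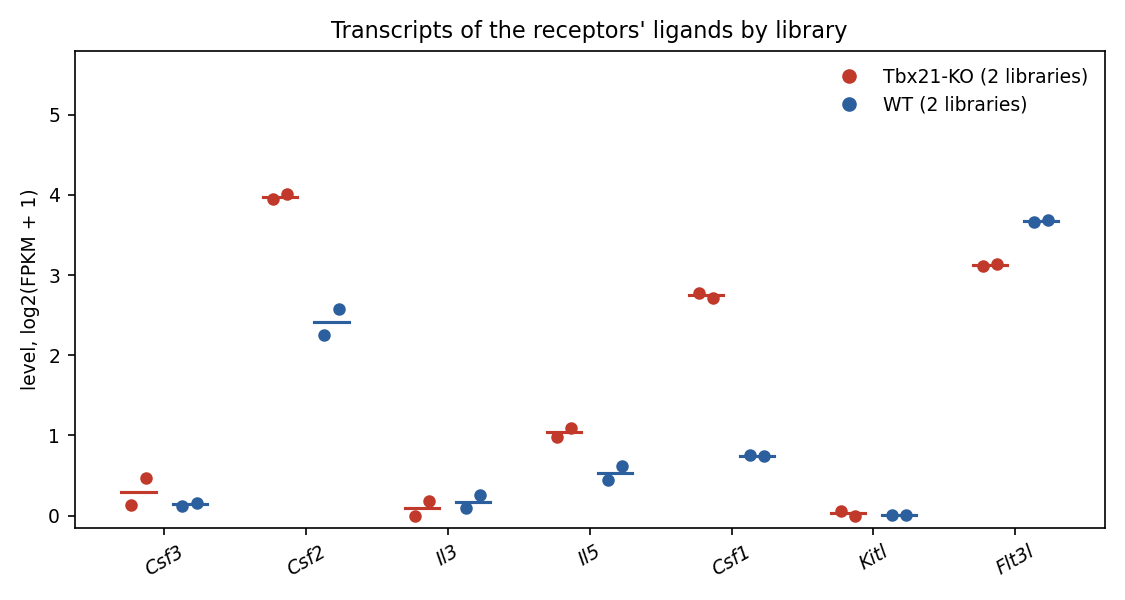
Level of each ligand transcript in log2(FPKM + 1), with 1 point per library and a line at the mean of the group's 2 log values (Tbx21-KO in red, WT in blue). Csf2 and Csf1 stand higher in Tbx21-KO, Flt3l stands lower, and Csf3, Il3 and Kitl lie near 0 in all 4 libraries.

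Of 14 measured receptors of related families, 8 were tested, of which 5 were higher, 2 lower and 1 not called, beside 30.1% higher and 23.0% lower of all tested genes. Cxcr2 and Il1r1 are among the 5 but passed the filter only through Tbx21-KO and had to differ, so the count supports nothing about the list. Il7r, the IL-7 receptor of lymphocytes, was at 45.0 and 42.5 FPKM in Tbx21-KO, against 5.52 and 5.70 FPKM in WT. Cxcr2, a chemokine receptor of neutrophils, was at 6.10 and 7.11 FPKM in Tbx21-KO, against 0.0131 and 0 FPKM in WT. Il1r1, a receptor for IL-1, and Cxcr4, the receptor for CXCL12, were higher by 2.13 and 1.76 on the log2 scale. After rescaling to T cell genes 7 were higher and 0 lower, so the calls of the 2 lower ones depend on the scaling.

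Of 18 measured signalling genes downstream of such receptors, all were tested. Of these 10 were higher, 4 lower and 4 not called, beside 30.1% higher and 23.0% lower of all tested genes. The median log2 fold change was 0.26, against 0.04 over all tested genes. The median was 0.68 after rescaling to T cell genes, where 15 were higher and 1 lower, and 0.16 with median-of-ratios scaling, where 8 were higher and 5 lower. The kinases Btk and Syk, which myeloid cells and B cells use, were higher by 3.29 and 2.65 on the log2 scale, and the adaptor Gab2 by 1.30. The 4 lower genes were Pik3cd, Pik3r1, Jak2 and Stat3, with log2 fold changes of -0.57, -0.40, -0.35 and -0.15. Btk and Syk had WT means of 0.147 and 0.563 FPKM and passed the filter only through Tbx21-KO. They had to differ, so the count and the median support nothing about the list.

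Of 12 measured feedback genes, 8 were higher, 3 lower and 1 not called, with a median log2 fold change of 0.45, beside 30.1% higher and 23.0% lower of all tested genes. The median was 0.88 after rescaling to T cell genes, where 9 were higher and 1 lower, and 0.34 with median-of-ratios scaling, where 7 were higher and 4 lower. Socs3, which restrains the G-CSF receptor, was at 42.0 and 39.7 FPKM in Tbx21-KO, against 19.4 and 17.5 FPKM in WT (log2 fold change 1.11, SE 0.06, limma adjusted p = 2.82e-04). Pirb, an inhibitory receptor of myeloid cells, was higher by 1.58 and passed the filter only through Tbx21-KO.

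Marker sums of neutrophils, of mast cells and basophils, and of eosinophils were higher in Tbx21-KO, though not every single marker was. Most of the receptors were higher as well, but Kit was lower. The 18 neutrophil and precursor markers summed to 11976 and 12316 FPKM in Tbx21-KO, against 11.9 and 16.02 FPKM in WT. S100a9 and Ngp led the list. All 18 were higher in both Tbx21-KO libraries, beside 43.7% of all tested genes. Only 6 of the 18 had a WT mean of at least 1 FPKM, and the rest passed the filter only through Tbx21-KO and had to differ. The 13 measured mast cell and basophil markers, led by Prss34 and Mcpt8, summed to 388 and 394 FPKM in Tbx21-KO and to 7.90 and 10.7 FPKM in WT. In that list Mcpt1, Mcpt2, Mcpt4, Tpsab1 and Mrgprb2, proteases and a receptor of tissue mast cells, were at 0 in both WT libraries and at no more than 0.132 FPKM in Tbx21-KO. Other mast cell proteases of the list were present: Tpsb2 was at 5.55 and 5.47 FPKM in Tbx21-KO, against 0.0371 and 0.0767 FPKM in WT. Cma1 was at 1.76 and 1.24 FPKM in Tbx21-KO and at 0.597 and 1.39 FPKM in WT, where the groups overlapped. The 8 eosinophil markers, led by Prg2 and Epx, summed to 289 and 280 FPKM in Tbx21-KO and to 0.773 and 1.03 FPKM in WT, where Ear1 was at 0. The part of these cells in the receptor levels was not tested.

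The 14 monocyte and macrophage markers summed to 500.3 and 531 FPKM in Tbx21-KO and to 200.5 and 201 FPKM in WT, of which Ly6c2, which T cells also express, held 164 and 162 FPKM in WT. Lyz2 of that list was at 198 and 216 FPKM in Tbx21-KO, against 2.68 and 3.84 FPKM in WT. In 13 of the 14 both Tbx21-KO libraries were above both WT libraries, beside 38.7% of genes above 0 in any library. However, Cx3cr1, Mrc1 and Ms4a7 were at no more than 0.131 FPKM in any library, and the groups overlapped for Ms4a7. The 10 blood progenitor markers summed to 703 and 749 FPKM in Tbx21-KO and to 558 and 575 FPKM in WT, most of it Ly6a, which activated T cells also express. Spi1 of that list, the gene of PU.1, was at 34.2 and 33.2 FPKM in Tbx21-KO, against 0.253 and 0.384 FPKM in WT, and Hoxa9 was at 0 in both WT libraries. All 10 were higher in both Tbx21-KO libraries, beside 38.7% of genes above 0 in any library, but 5 stayed under the filter. The lowest in Tbx21-KO were Cd34 at 0.376 and 0.388 FPKM, Meis1 at 0.102 and 0.150 FPKM and Mecom at 0.00345 and 0.00335 FPKM. The 13 dendritic cell markers, of which H2-Ab1 and Ccr7 had the highest means over the 4 libraries, summed to 202 and 210.1 FPKM in Tbx21-KO and to 83.5 and 89.9 FPKM in WT, with Clec9a at 0 in both WT libraries and Cd209a at 0 in both Tbx21-KO libraries. Itgax was at 1.06 and 1.38 FPKM in Tbx21-KO, against 1.45 and 1.71 FPKM in WT, and Xcr1 at 1.01 and 0.962 FPKM in Tbx21-KO, against 1.32 and 1.54 FPKM in WT, and limma called neither. The 7 B cell markers, led by Ighm and Igkc, summed to 92.4 and 89.3 FPKM in Tbx21-KO and to 40.7 and 42.3 FPKM in WT. The part of these cells in the receptor levels was likewise not tested.

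**Figure D4:**
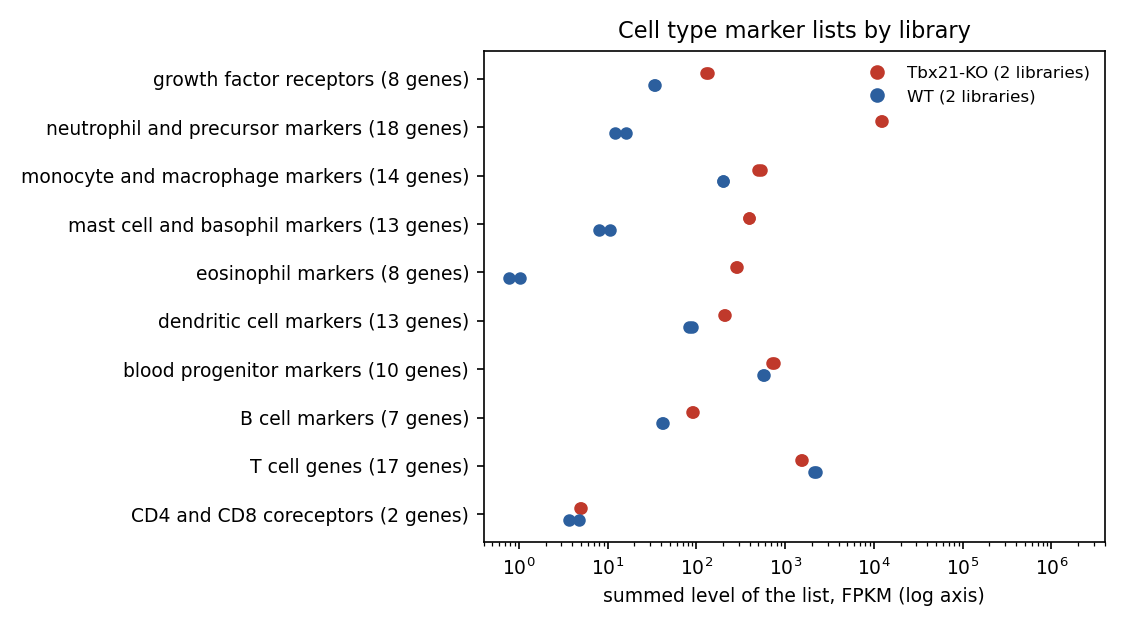
Summed FPKM of each marker list and of the 8 receptors on a log axis, with 1 point per library (Tbx21-KO in red above, WT in blue below). The neutrophil list stands at 11976 and 12316 FPKM in Tbx21-KO and at 11.9 and 16.02 FPKM in WT, while the T cell list is lower in Tbx21-KO, at 1518 and 1550 FPKM against 2127 and 2233 FPKM.

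The genes whose 4-library pattern lay nearest to that of a receptor were found by the root-mean-square distance between profiles of log2(FPKM + 1), each centred on its own mean. With 4 libraries in 2 groups, this likeness reflects mainly the size of the group difference and is given as a description. Nearest to Csf3r were Il1r2, a decoy receptor for IL-1, at a distance of 0.04, Cyp11a1, a steroid-synthesis enzyme, at 0.06, and Il1f9, an IL-1 family cytokine, at 0.07. Nearest to Csf2rb were Gata2, a transcription factor of progenitors, mast cells and basophils, and Prss57, both at 0.03, and Pglyrp1, a neutrophil granule protein, at 0.04. Nearest to Csf2rb2 were Gap43 and Fcer1a, the alpha chain of the IgE receptor of mast cells and basophils, both at 0.05, and 2010005H15Rik at 0.08. Among the genes nearest to Csf2ra were Nucb2 and Mmp9, a neutrophil protease, both at 0.03.

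**Figure D5:**
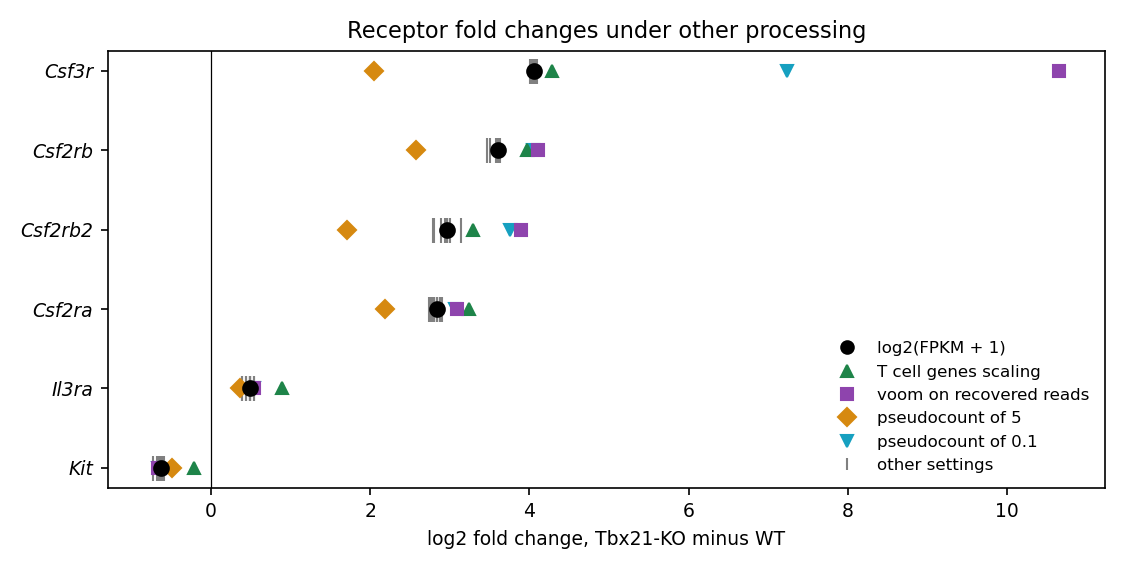
Log2 fold change of each tested receptor, Tbx21-KO minus WT, under the log2(FPKM + 1) scale (black) and other settings. No receptor crosses 0: Kit lies between -0.72 and -0.21, and Csf3r ranges from 2.05 with a pseudocount of 5 to 10.66 with voom, since its WT level rests on a single read.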

How the data were processed

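RNA of mouse cDNT cells was sequenced after column extraction and mRNA library preparation, per the labels' protocols. The authors deposited FPKM values per gene and library. The submitters' processing notes name the builds GRCm38 and mm10, while aligner, counter and strandedness are not stated. The last of 24769 rows was incomplete and was left out, and 24720 of 24768 gene IDs matched the GENCODE M21 annotation (GRCm38). Reads were recovered from FPKM and summed exon length, and library totals from the step of low values.

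Values were tested as log2(FPKM + 1) with limma 3.58.1 (R 4.3.3, variance trend) in 11013 genes with a mean of at least 1 FPKM over the 4 libraries, and the steps were also tested on simulated data. Libraries of a group differed by more than counting noise (median chi-square per gene 1.21 in Tbx21-KO and 1.31 in WT, against 0.455 from counting alone), so none was taken for the same library deposited again, which does not show that they are independent samples. Alternatives were other pseudocounts (0.1 and 5), filters, scalings, voom on recovered reads, a replicate block and leaving out each library. All receptors and ligands are named, and of the related lists genes called with a log2 fold change of at least 1, and some genes that the rules would name are not reported here. Of each marker list the leading genes are named, as are markers at 0. T cell genes beside Kit, the lower signalling genes, and Tpsb2, Cma1, Itgax and Xcr1 were chosen after their values were seen. The same holds for Cd34, Meis1, Mecom, Cx3cr1, Mrc1 and Ms4a7. Receptors, lists and tests were chosen with earlier results of these data known. FPKM are shares of a library, so a large rise of some genes lowers others.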

Additional observations from a re-analysis of the deposited data

How the results depend on the processing

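The 6 tested receptors kept their direction and their call in every alternative that could test them; Csf3r could not be tested under the filter on the WT mean (at least 1 FPKM). Including the ligands, Tbx21 and 10 related genes, 287 of 288 values kept direction and call, the exception being Flt3l after rescaling to T cell genes (-0.15, limma adjusted p = 0.0561). Leaving out each library, where the lone library left is assumed to vary like the other group, gave log2 fold changes of 4.02 to 4.10 for Csf3r, 2.78 to 2.91 for Csf2ra, 3.58 to 3.63 for Csf2rb, 2.80 to 3.14 for Csf2rb2, 0.44 to 0.54 for Il3ra and -0.65 to -0.59 for Kit. The count of receptors called higher was 5, or 6 with no filter and with voom, where Csf1r was tested, and 4 under the filter on the WT mean. Of all genes, 3762 of 24060 were higher with no filter, 5172 of 17494 with voom and 2647 of 10395 under the filter on the WT mean.

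Over all genes, 3315 were higher and 2531 lower. The higher count was 2018 at a mean FPKM of at least 5, 5172 with voom on recovered reads and 7738 with the T cell genes scaling, where 547 were lower. Of the calls, 56.7% were higher as deposited, 43.0% with median-of-ratios scaling, 39.6% after quantile normalization and 93.4% with the T cell genes scaling. Leaving out a library gave 2391 to 3036 higher and 1726 to 2225 lower. With a replicate block, 3245 were higher and 2482 lower, and no receptor changed its call. Same-numbered libraries did not deviate together (correlation -0.02), and no label pairs them. The size of a fold change of a gene near 0 in WT rests on the pseudocount: Csf3r was at 2.05 with 5 and at 7.23 with 0.1. Depth limits Flt3, Csf3, Il3 and Kitl most.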
